A study of Mus musculus with 6 samples.

Results

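The 10 genes described here are imprinted growth genes: H19, Igf2, Igf2r, Dlk1, Meg3, Grb10, Peg3, Ndn, Mest and Plagl1. They were taken by gene name from a table of 35275 genes measured in sorted mouse haematopoietic stem cells (HSCs), the rare marrow cells from which all blood lineages derive. All 10 had a row in that table and in the accompanying table of read counts, which covers 18368 genes. RNA came from about 2000 sorted HSCs per library, from the bone marrow of adult mice. The 6 libraries fell into 3 from mice of genotype Ramp1+/+, called wild type, and 3 from mice whose genotype is written Ramp-/- and whose titles say Ramp1 Mut, called mutant. Ramp1 encodes the accessory protein of the receptor for the neuropeptide CGRP, and the design compares HSC transcripts between these genotypes. No label tells what the allele removes from Ramp1, or whether the libraries are from different animals. The p-values therefore reflect only the spread between these libraries. The Y-linked reads described below differ within each group, so its libraries did not all come from 1 animal.

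An imprinted gene is transcribed mainly from the copy inherited from 1 parent, and methylation of nearby control regions marks which copy that is. Among imprinted growth genes, paternally expressed ones tend to promote growth and maternally expressed ones tend to restrain it, with Igf2 and its clearance receptor Igf2r as the classic opposed pair. Of the 10 genes, H19, Igf2r, Meg3 and Grb10 are maternally expressed in most mouse tissues and the other 6 paternally. In adult tissues these genes are generally low compared with the fetus, and several have been studied for keeping stem cells quiescent. The reads were not assigned to parental copies, so the values below are the sum over both.

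Promoter sequences are shown for 4 of these genes, taken from RefSeq on the build GRCm38.p6 as the 250 bases before an annotated start. RefSeq start sites were matched by symbol for 9 of the 10 genes, with 16 promoters between them. Ndn and Grb10, the most abundant of the 10 transcripts, are shown because their promoters differ in CpG content. Capitals mark each CpG, the dinucleotide that methylation acts on. The Ndn stretch is chr7:62348027-62348276 on the plus strand and the Grb10 stretch is chr11:12037421-12037670 on the minus strand, each written 5′ to 3′ along the gene.
Ndn: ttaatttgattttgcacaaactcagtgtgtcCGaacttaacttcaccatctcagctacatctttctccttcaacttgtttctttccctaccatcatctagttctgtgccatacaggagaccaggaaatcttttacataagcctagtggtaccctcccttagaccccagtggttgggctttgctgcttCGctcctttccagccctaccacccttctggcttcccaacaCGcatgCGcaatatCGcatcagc
Grb10: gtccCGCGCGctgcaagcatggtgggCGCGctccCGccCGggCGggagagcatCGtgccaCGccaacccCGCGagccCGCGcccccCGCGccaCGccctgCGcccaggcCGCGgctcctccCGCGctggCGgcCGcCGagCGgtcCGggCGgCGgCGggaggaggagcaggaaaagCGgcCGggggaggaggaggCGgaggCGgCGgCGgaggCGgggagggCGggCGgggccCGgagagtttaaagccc
The Ndn stretch held 5 CpGs and this Grb10 stretch held 40, where the median of all 32851 promoters was 6. Of all promoters, 44.4% held fewer CpGs than that of Ndn and 98.7% held fewer than this one of Grb10. The second Grb10 start had 8.

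The promoters of Meg3 and Peg3 are shown because they are the 2 of the 16 that hold the palindromic cAMP response element, TGACGTCA. This element is the binding site of CREB, a factor activated when receptors such as that for CGRP raise cyclic AMP. Capitals mark the element. The Meg3 stretch is chr12:109540746-109540995 on the plus strand and the Peg3 stretch is chr7:6730420-6730669 on the minus strand.
Meg3: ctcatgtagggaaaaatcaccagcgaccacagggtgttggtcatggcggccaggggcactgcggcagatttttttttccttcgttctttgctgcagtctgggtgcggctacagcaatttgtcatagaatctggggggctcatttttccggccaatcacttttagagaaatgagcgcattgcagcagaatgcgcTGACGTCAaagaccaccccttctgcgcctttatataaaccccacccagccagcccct
Peg3: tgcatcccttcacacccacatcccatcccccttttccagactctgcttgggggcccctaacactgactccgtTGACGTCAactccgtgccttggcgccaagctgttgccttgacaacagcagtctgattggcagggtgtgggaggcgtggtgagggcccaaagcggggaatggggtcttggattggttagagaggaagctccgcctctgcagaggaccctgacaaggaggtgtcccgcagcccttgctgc
The element begins 57 bases before this Meg3 start and 178 bases before the Peg3 start. The promoter of the second Meg3 start, not shown, lacked it. Of all 32851 promoters of this length, 508 (1.55%) held TGACGTCA. The 5-base core TGACG, searched on both strands and overlapping the palindrome, was in 6 of the 16 promoters and in 17.8% of all. GGGGCCCC, the recognition sequence of the Plagl1 protein, was in 1 of the 16, that of Peg3, and in 0.889% of all. A match describes these letters and does not show that a factor binds there.

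Ndn and Grb10 dominated the group. Levels are given in FPKM, reads scaled to gene length and to the total counted reads of the library, so that genes of different length can be compared. Over the 6 libraries the mean was 67.4 FPKM for Ndn, 28.1 for Grb10, 5.61 for Igf2r and 1.1 for Dlk1. The other 6 genes were each under 1 FPKM: Igf2 had 0.425, H19 0.394, Plagl1 0.352, Mest 0.31, Peg3 0.26 and Meg3 0.0752. Ndn stood higher than 93.7% of the 20422 genes with a value above 0 in any library, Grb10 higher than 83.4% and Igf2r higher than 57.9%. Meg3 stood higher than 17.6%. The ranges of Ndn, Grb10, Igf2r and Dlk1 over the 6 libraries did not overlap each other. Below Dlk1, neighbours in the order did overlap: the lowest Dlk1 value, 0.613, lay under the highest Igf2 value, 0.677. Of 46913 reads on the 10 genes, Grb10 had 44.8%, Ndn 35.2%, Igf2r 15.6% and the other 7 together 4.39%.

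**Figure D1:**
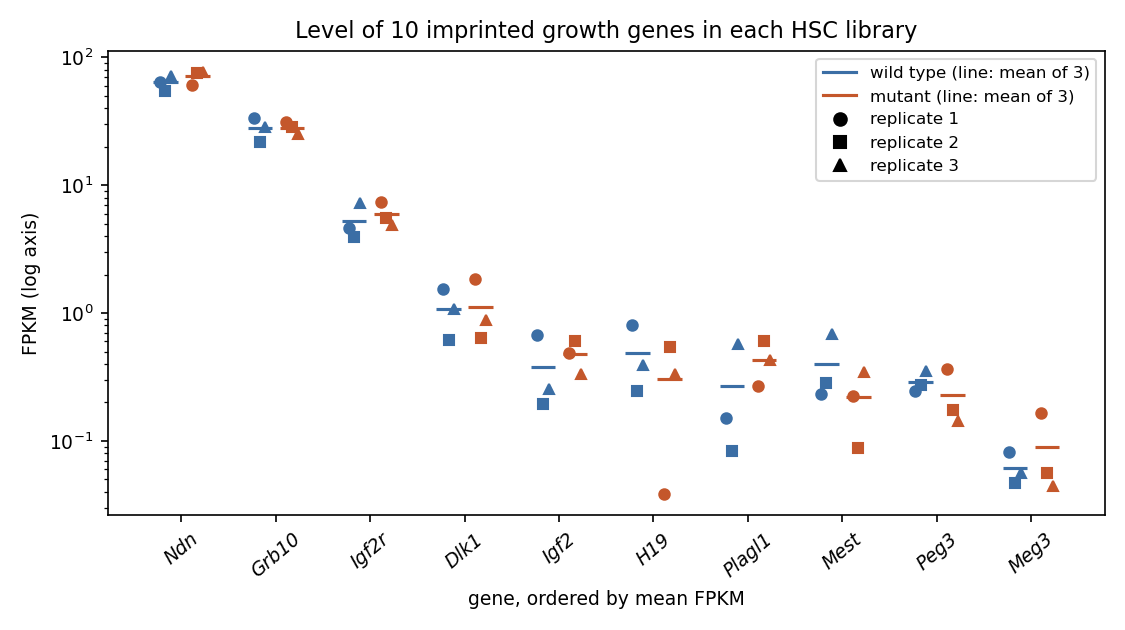
FPKM (log axis) of each gene in each of the 6 libraries, with symbols for the replicate number and a line at each group's mean. Ndn sits between 54.2 and 77.1 FPKM and Meg3 at or under 0.166, and the wild-type and mutant points overlap for every gene.

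None of the 10 genes differed between mutant and wild-type HSCs by the test used. All 10 passed the filter on low counts and were tested among 14443 genes with edgeR's quasi-likelihood test. Their adjusted p was 0.999 each (edgeR), and 0 of the 10 had an unadjusted p under 0.05. Over all genes tested, 0.0208% passed an adjusted p of 0.05 and 3.99% had an unadjusted p under 0.05. DESeq2 on the same counts also called 0 of the 10. The FPKM ranges of the groups overlapped for all 10, while they did not overlap for 10.3% of all genes tested. Estimates were higher in mutant cells for 7 genes and lower for 3, with a median log2 fold change of 0.11 against 2.96e-04 over all genes tested. Of the 4 maternally expressed genes 3 had higher estimates, and of the 6 paternally expressed genes 4 did. Permuting the FPKM values exactly, 3 against 3 and two-sided, gave an exact p between 0.4 and 1.0 for the 10 genes (0.833 to 1.0 after Benjamini-Hochberg adjustment over the 10), where 0.1 is the smallest this design allows. The authors' deposited table lists an adjusted p of 0.99977 for each of the 10.

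The intervals of the 3 most abundant genes were narrower than those of the other 7. For Grb10 the 95% interval of the log2 fold change ran from -0.33 to 0.37, a mutant level of 0.794 to 1.29 times wild type. For Ndn it ran from -0.16 to 0.50, or 0.893 to 1.41 times, and for Igf2r from -0.38 to 0.73, or 0.768 to 1.65 times. These are the 3 genes whose interval stayed within 2-fold in each direction. The widest intervals belonged to H19 (0.16 to 2.59 times), Plagl1 (0.506 to 5.22 times) and Mest (0.179 to 1.7 times), which had 136, 275 and 115 reads over the 6 libraries.

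**Figure D2:**
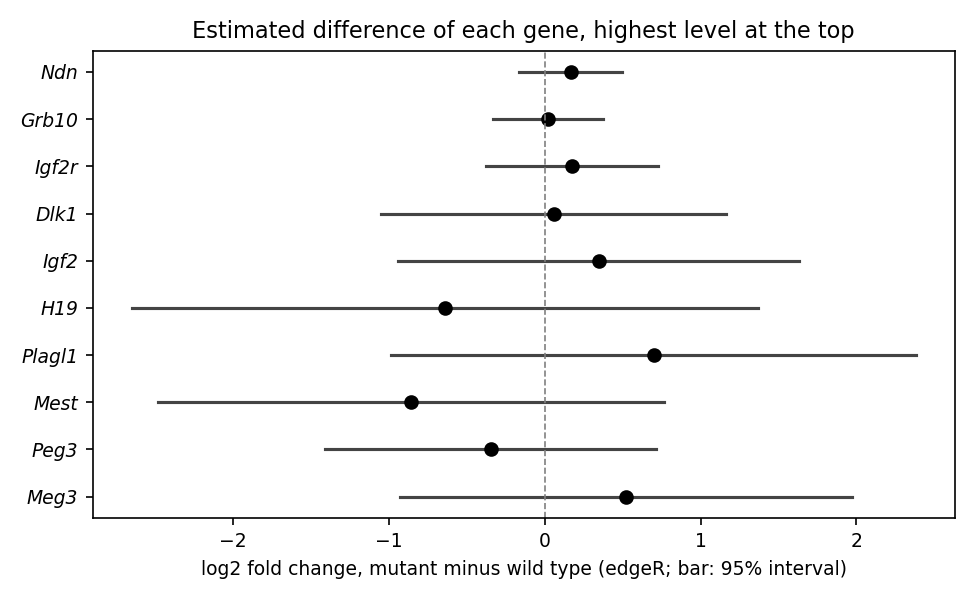
Log2 fold change of each gene, mutant minus wild type, with the 95% interval from the edgeR fit, ordered by level with the highest at the top. Every interval crosses 0, and the bars run from -0.33 to 0.37 for Grb10 and from -2.65 to 1.37 for H19.

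The receptor Igf2r was more abundant than its ligand Igf2 in all 6 libraries. Igf2 (insulin-like growth factor 2, chr7:142650766-142666816 of mm10, minus strand) had 0.677, 0.196 and 0.254 FPKM in wild-type replicates 1 to 3 and 0.483, 0.61 and 0.333 in mutant replicates 1 to 3. Wild-type replicate 1 was the highest library and the other wild-type libraries the lowest, so the mutant values lay inside the wild-type range. The log2 fold change was 0.35 (SE 0.56), on 23 to 81 reads per library, and ran from 0.048 without wild-type replicate 2 to 1.07 without wild-type replicate 1. Igf2r (chr17:12682406-12769664, minus strand), which carries IGF2 to the lysosome and also sorts lysosomal enzymes, had 4.66, 3.94 and 7.24 FPKM in wild type. In mutant cells it had 7.43, 5.52 and 4.89 FPKM. Wild-type replicate 3 and mutant replicate 1 were high and the rest lower, and the log2 fold change was 0.17 (SE 0.24). It ran from 0.0032 without mutant replicate 1 to 0.46 without wild-type replicate 3. The ratio of Igf2r to Igf2 in FPKM ran from 6.89 in wild-type replicate 1 to 28.5 in wild-type replicate 3, with 9.05 to 15.4 in the mutant libraries. In the annotation used for overlaps, the protein-coding gene Gm49394 covers 16048 bases of Igf2 on the same strand. Gm49394 was not among the genes measured, and its part in the Igf2 values and their ratios was not tested.

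Igf2r overlaps the antisense RNA Airn, which silences the paternal copy of Igf2r, over 28354 bases. Airn had 1.03, 0.672 and 0.934 FPKM in wild type and 1.88, 0.979 and 0.938 in mutant cells (log2 fold change 0.52, SE 0.47). Mutant replicate 1 was the highest library for both. No source used here says whether counting was stranded, so reads in the shared stretch cannot be told apart. The same holds for Ndn, which Gm32061 covers on the other strand in the annotation.

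Grb10 (chr11:11930508-12038683, minus strand) encodes an adaptor that binds the insulin and IGF1 receptors and dampens their signal. It had 33.5, 21.9 and 28.4 FPKM in wild type and 31.2, 28.4 and 25.2 in mutant cells, on 2757 to 4296 reads per library. Wild type spanned the wider range and held both the highest and the lowest library. Means were 27.9 ± 5.81 and 28.3 ± 3.01 FPKM (SD, n = 3 each), a log2 fold change of 0.020 (SE 0.15).

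Dlk1 (chr12:109452823-109463336, plus strand) encodes a transmembrane protein of the Delta family that also acts as a soluble growth regulator. Replicate 1 was its highest and replicate 2 its lowest library in both groups. Wild type had 1.53, 0.613 and 1.08 FPKM and mutant cells 1.85, 0.635 and 0.875. The log2 fold change was 0.058 (SE 0.48). The replicate 1 libraries also stood apart in reads of the Y-linked genes Ddx3y, Uty, Kdm5d and Eif2s3y, with 6527 such reads in the wild-type library and 6137 in the mutant one, while the other 4 libraries had 0 to 2. Without both of them the log2 fold change of Dlk1 was -0.14, and the part of sex in its level was not tested.

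The non-coding RNAs H19 and Meg3 were low, and mutant replicate 1 stood apart for both, in opposite directions. H19 (chr7:142575529-142578143, minus strand), a maternal RNA that lies beside Igf2 and shares its enhancers, had 47, 14 and 21 reads in wild type. In mutant cells it had 2, 33 and 19 reads. In FPKM these are 0.811, 0.246 and 0.393 against 0.0384, 0.54 and 0.335. The mutant replicates 2 and 3 lay within the wild-type range and mutant replicate 1 below it. Per counted read, H19 in mutant replicate 1 was 0.0819 times the level of the other 5 libraries together (exact 95% counting interval 0.00982 to 0.302). The log2 fold change of H19 was -0.64 (SE 0.87). It was -0.12 without that library, -0.051 without wild-type replicate 1, the highest, and -1.33 without mutant replicate 2. Without both libraries with Y-linked reads it was 0.47.

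Igf2 and H19 share the same insulator-controlled enhancers, on opposite parental copies. In FPKM, Igf2 was 0.834, 0.795 and 0.645 times H19 in wild-type replicates 1 to 3 and 1.13 and 0.994 times in mutant replicates 2 and 3. Mutant replicate 1 had 12.6 times as much Igf2 as H19 (exact 95% counting interval 3.31 to 107), on 52 and 2 reads. The exact intervals of the other 5 libraries together reached from 0.354 to 1.82, which the interval of mutant replicate 1 did not overlap. These intervals cover counting error only, since PCR copies are not independent molecules, and the library was singled out after its value was seen.

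**Figure D3:**
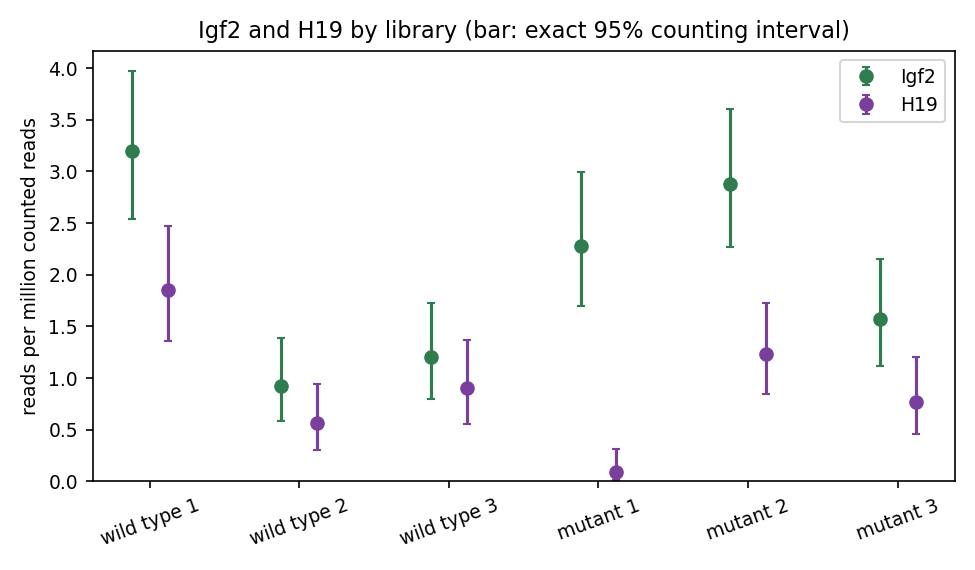
Igf2 and H19 in CPM (reads scaled to the library total) in each library, with exact 95% counting intervals. H19 lies between 0.563 and 1.85 in 5 libraries and at 0.0877 in mutant replicate 1, where Igf2 is inside its range in the other libraries.

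Meg3 (chr12:109541001-109571726, plus strand), the maternal RNA of the Dlk1 domain, had 30, 17 and 19 reads in wild type and 55, 22 and 16 in mutant cells. Spread over 14548 exonic bases this was 0.0813, 0.047 and 0.0559 FPKM against 0.166, 0.0566 and 0.0443. Mutant replicate 1 was the highest and mutant replicate 3 the lowest library. Its level in mutant replicate 1 was 2.9 times that of the other 5 libraries together (exact 95% counting interval 2.05 to 4.06). The log2 fold change was 0.52 (SE 0.63) with all libraries and -0.26 without mutant replicate 1. Rian, the next maternal RNA along the same domain, was lowest in that library, with 0.0217 FPKM (4 reads) there against 0.0497 to 0.277 in the other 5. Mirg, a further maternal RNA of the domain, was highest there, with 0.321 FPKM (28 reads) against 0 to 0.0946 FPKM elsewhere, and lay under the filter on low counts. Both were singled out after their values were seen.

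The genes of nuclear proteins in the group ranged from a mean of 67.4 FPKM for Ndn to 0.26 for Peg3. Ndn (necdin, chr7:62348277-62349928, plus strand), a single-exon gene whose product restrains cell cycle entry through E2F factors, had 64.6, 54.2 and 72.2 FPKM in wild type. In mutant cells it had 60.8, 75.7 and 77.1 FPKM, on 2229 to 3343 reads per library over both groups. Mutant replicates 2 and 3 were the highest libraries, but mutant replicate 1 lay under 2 wild-type libraries. Means were 63.7 ± 9.02 and 71.2 ± 9.04 FPKM (SD, n = 3 each), a log2 fold change of 0.17 (SE 0.14). Leaving out 1 library gave 0.083 (without wild-type replicate 2) to 0.28 (without mutant replicate 1).

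Plagl1 (chr10:13090691-13131694, plus strand), a zinc finger protein that can arrest the cell cycle, had 0.15, 0.084 and 0.578 FPKM in wild type and 0.267, 0.604 and 0.429 in mutant cells. Wild-type replicates 1 and 2 were the lowest libraries, while wild-type replicate 3 lay beside the highest mutant library. The log2 fold change was 0.70 (SE 0.73) and ran from 0.28 without wild-type replicate 2 to 1.89 without wild-type replicate 3. Peg3 (chr7:6703892-6730421, minus strand), a large zinc finger protein, had 0.245, 0.273 and 0.354 FPKM in wild type and 0.368, 0.176 and 0.144 in mutant cells. Mutant replicates 2 and 3 were its lowest libraries and mutant replicate 1 its highest (log2 fold change -0.35, SE 0.46). The value ran from -0.84 without mutant replicate 1 to -0.11 without mutant replicate 3.

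Mest (chr6:30723547-30748455, plus strand), which encodes a membrane protein of the alpha/beta hydrolase fold, had 0.232, 0.283 and 0.687 FPKM in wild type and 0.223, 0.0879 and 0.347 in mutant cells. The counts were 6 to 41 reads. The highest library was wild-type replicate 3 and the lowest mutant replicate 2 (log2 fold change -0.86, SE 0.70). The value ran from -1.37 without mutant replicate 3 to -0.24 without wild-type replicate 3. Mest overlaps Copg2 over 902 bases, and Copg2 is transcribed from the other strand at a mean of 31.1 FPKM, so some reads counted for Mest could belong to Copg2.

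The spread among libraries was larger than counting error for every one of the 10 genes. The coefficient of variation over the 6 libraries was 13.5% for Ndn and 14.7% for Grb10, where counting error alone gives 1.91% and 1.69%. It was 25.4% for Igf2r, 35.1% for Peg3, 45.5% for Dlk1 and 46% for Igf2. It reached 61.6% for Meg3, 62.3% for Plagl1, 65.7% for Mest and 66.9% for H19. Counting error gives 19.4% for Meg3, 14.8% for Plagl1 and 21% for H19. edgeR's estimate of the spread between replicates beyond counting error was 14.4% for Ndn and 72.7% for H19. Genes of like abundance had 15.2% and 61.7% on the fitted trend. Wild-type replicate 2 was the lowest library for 6 of the 10 genes and the highest for 0. Mutant replicate 1 was the highest for 4 genes and the lowest for 1, H19.

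**Figure D4:**
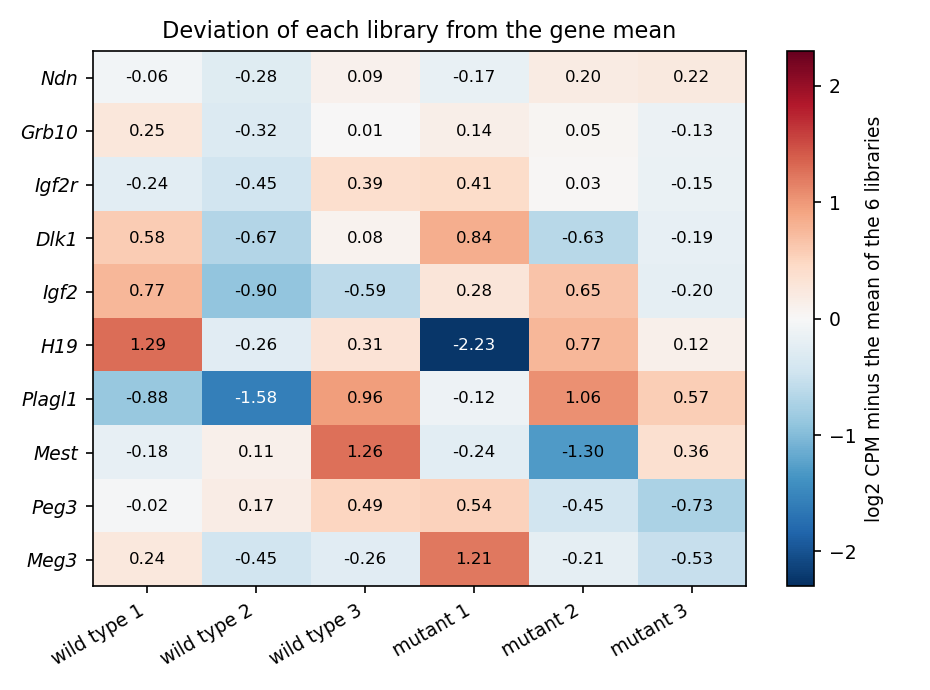
Deviation of each library from the gene's mean over the 6 libraries, in log2 CPM (reads scaled to the library total, prior count 2), for the 10 genes ordered by level. The largest deviations are H19 in mutant replicate 1 (-2.23) and Plagl1 in wild-type replicate 2 (-1.58).

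The libraries were checked for the targeted gene and for other cells. Ramp1 had 88.3 to 91.4 FPKM in wild type and 1.35 to 3.53 FPKM in the mutant libraries (edgeR adjusted p = 0.00146, with a log2 fold change of -5.17 and SE 0.31). Between 22796771 and 26734561 reads per library were counted in genes. All 12 HSC markers examined, Procr, Mecom and Hlf among them, had a mean of at least 1 FPKM, and their sum was 1290 to 1550 FPKM in wild type and 1310 to 1630 FPKM in mutant cells. The 10 stromal markers summed to 20.3 to 37.4 FPKM in wild type. In mutant cells they summed to 12 to 35 FPKM. Of the 10, 4 had a mean of at least 1 FPKM: Pdgfrb 7.8, Col1a2 7.04, Sparc 6.78 and Cxcl12 4.27. The other 6 were below that, with Col1a1 and Col3a1 at or near 0. The 8 erythroid markers summed to 209 FPKM in mutant replicate 1 and to 10.5 to 65.2 FPKM in the other 5 libraries, and the stromal sum was lowest in that library. Macrophage markers summed to 8.16 FPKM there and to 22.7 to 29.2 elsewhere. The 7 endothelial markers summed to 71.8 FPKM there, inside the 63.1 to 83.4 FPKM of wild type. Of these, Cdh5, Kdr, Plvap (0.196 FPKM) and Stab2 (0 FPKM) were lowest in that library. Pecam1 was highest there (19.7 FPKM), and Emcn and Tek lay inside the range of the other libraries. Neutrophil markers summed to 35.1 to 783 FPKM in wild type and to 172 to 1090 FPKM in mutant cells. The progenitor markers Flt3, Cd48 and Cd34 summed to 215 FPKM in wild-type replicate 1 and 227 in mutant replicate 1. Elsewhere that sum was 166 to 195 FPKM. Wild-type and mutant sums were 142 to 192 and 107 to 193 FPKM for megakaryocyte markers. They were 37.7 to 42.4 and 34.8 to 48.5 for B cells, and 1.59 to 2.64 and 2.16 to 2.85 for T cells. The part of such cells in the H19, Meg3 and other values was not tested. Fewer cells of a type and less RNA per cell cannot be told apart in such bulk libraries.

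Neighbours in the same imprinted domains did not pass the test either. Of 45 genes listed, 39 had a row, 24 were tested, 11 had higher and 13 lower estimates, and 0 passed (median log2 fold change -0.032). By edgeR 0 of the 24 had an unadjusted p under 0.05, against 3.99% of all genes tested. Several were far more abundant than the growth genes beside them. Cd81, a tetraspanin near H19 and Igf2, had 319 to 336 FPKM over the 6 libraries, with a log2 fold change of 0.014 (SE 0.075). Tspan32 had 212 to 268 FPKM and Nap1l4, a histone chaperone, 131 to 148. Tssc4 had 27.6 to 42.3 FPKM (log2 fold change -0.17). Cdkn1c, the maternally expressed cell cycle inhibitor p57 of the same chromosome arm, had 23.4, 23.8 and 23.2 FPKM in wild type and 31.8, 24.9 and 23.5 in mutant cells. Mutant replicate 1 alone stood above the rest (log2 fold change 0.18, SE 0.13). Beside Ndn, the ubiquitin ligase gene Ube3a had 37.3 to 52.3 FPKM (log2 fold change 0.020), below the 54.2 to 77.1 FPKM of Ndn itself. Beside Mest, Copg2 of the Golgi coat had 27.3 to 36.3 FPKM (log2 fold change 0.021).

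Of 27 tested genes of IGF and insulin signalling, 0 passed the threshold, 16 had higher and 11 had lower estimates (median 0.044). By edgeR 3 had an unadjusted p under 0.05, where 3.99% of all genes tested did. The second mannose 6-phosphate receptor, M6pr, had 142 to 154 FPKM, well above Igf2r, with a log2 fold change of 0.016 (SE 0.081). The IGF1 receptor Igf1r had 7.41 to 11.5 FPKM and the insulin receptor Insr 2.83 to 4.52. The adaptor Shc1 had 56.6 to 64.5 FPKM and the binding protein Igfbp4 61 to 83.5. The kinase gene Akt2 had 53.7 to 64.4 FPKM (log2 fold change 0.044) and Pik3cd 36.4 to 85.9 (log2 fold change 0.32). Akt1 had 156, 146 and 128 FPKM in wild type and 130, 73.8 and 62.5 in mutant cells (edgeR adjusted p = 0.999 for a log2 fold change of -0.70, SE 0.24). Mutant replicates 2 and 3 were low and mutant replicate 1 lay inside the wild-type range. The other genes with an unadjusted p under 0.05 were the lipid kinase gene Pik3ca (log2 fold change -0.55, SE 0.19) and the secreted binding protein gene Igfbp7 (-1.45, SE 0.56), named after their values were seen. Their groups did not overlap, nor did those of the adaptor Grb2, which makes 3 of 27 tested genes against 10.3% of all genes tested.

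Genes of the imprint maintenance list ranged from 0 FPKM in all 6 libraries for Dppa3 to a mean of 79.2 for Dnmt1. The list also holds Tet1, Tet2 and Tet3, whose products take part in removing methylation. A mean of at least 1 FPKM was found for 20 of the 23. Of the 23, 22 were tested, 5 had higher and 17 lower estimates, and 0 passed (median log2 fold change -0.094). Over all genes tested, 7230 estimates were higher and 7213 lower, with a median of 2.96e-04. By edgeR 2 of the 22 had an unadjusted p under 0.05, where 3.99% of all genes tested did. The maintenance methyltransferase Dnmt1 had 80.8, 90.3 and 74.8 FPKM in wild type and 65.1, 63.6 and 101 in mutant cells. Uhrf1, which guides it to replicated DNA, had 74.5, 81.2 and 78.1 against 47.9, 59.2 and 102 FPKM. For both, mutant replicate 3 was the highest library and mutant replicates 1 and 2 the lowest. Trim28, the corepressor recruited to imprinted control regions, had 79.7, 75.9 and 79.9 FPKM in wild type and 67.1, 65.5 and 72.7 in mutant cells. These groups did not overlap (edgeR adjusted p = 0.999 for a log2 fold change of -0.20, SE 0.083). The other gene of the list with an unadjusted p under 0.05 was Dnmt3l, a cofactor of the germline methyltransferases, with 12, 21 and 13 reads in wild type and 1, 0 and 6 in mutant cells. Its groups did not overlap either, which makes 2 of 22 tested genes against 10.3% of all genes tested. Ctcf, the insulator protein of the H19 and Igf2 domain, had 38.4 to 47.1 FPKM (log2 fold change 0.020, SE 0.096). Dnmt3b had 32.1 to 45.4 FPKM and the Polycomb gene Eed 50.9 to 71. Zfp57, the zinc finger protein that binds methylated imprinted regions, was low at 0.304 to 0.972 FPKM.

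**Figure D5:**
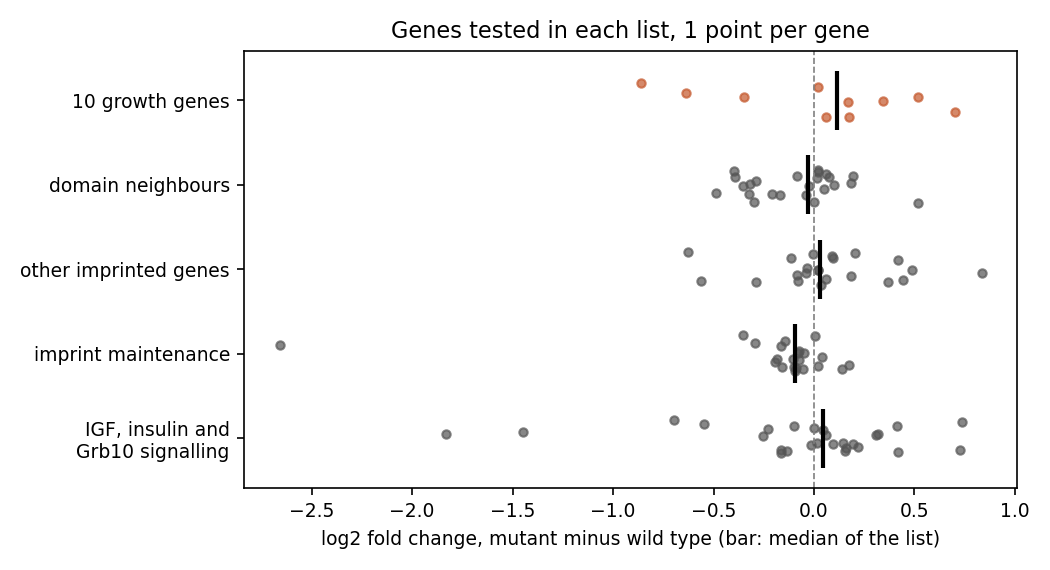
Log2 fold change, mutant minus wild type, of each tested gene in the 10 growth genes and in 4 related lists, with a bar at each list's median. The medians lie between -0.094 and 0.11, and no point stands for a gene past the adjusted threshold.

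For the 4 genes with a mean of at least 1 FPKM, the most similar patterns over the 6 libraries were looked up among 12036 other genes of at least 1 FPKM. Genes with predicted or clone-based names are within that number but were passed over, so the likeness below is among the remaining genes. All values share the same 6 libraries and their depth, and each match was picked as the highest among so many genes. A high r over 6 libraries is therefore a description only. Dlk1 was most like Igf2bp2, which encodes a protein that binds Igf2 mRNA (Pearson's r = 0.994 and Spearman's rho = 0.943 on log2 CPM), and Zfp747 (0.99 and 1.0). Igf2r was most like Aph1b and Surf2 (r = 0.998 and 0.991), and Grb10 like Nin and Igsf23 (r = 0.997 and 0.984). Fbxw7 was among the 2 genes most like Ndn (r = 0.981). Igf2bp2 itself had 4.88, 3.47 and 4.16 FPKM in wild type and 5.1, 3.41 and 3.86 in mutant cells. It was highest in replicate 1 of both groups, as Dlk1 was, which follows from its being picked for likeness to Dlk1.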

How the data were processed

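RNA was sequenced from 6 HSC libraries, put into 2 groups by their genotype labels. Per the submitters' processing notes, the build was mm10 and the tools included STAR, CASAVA, DESeq2 and HTSeq 0.6.1, with no role stated. The annotation release and strand setting are not given in the sources used here. The authors deposited raw read counts per gene, FPKM (per length and per counted read), size-factor-normalized counts (a signal unit, not used here), log2 fold changes and p-values.

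The deposited counts of all genes were fitted with edgeR 4.0.16 (R 4.3.3), using its quasi-likelihood test after TMM scaling and the filterByExpr filter. Benjamini-Hochberg adjusted p under 0.05 over 14443 genes was the threshold. Each standard error was derived from the estimate and its F statistic. The fit was tested on simulated data. Exact counting intervals are Clopper-Pearson at 95%, and cover counting error only. Overlapping genes were read from GENCODE M21 of the same build. None of the 6 library pairs within a group agreed within sampling noise.

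The 10 genes and the lists were chosen with earlier results of these data known. All 10, up to 6 of the most abundant genes of each list, any gene past the threshold and the 2 most similar genes of each member with at least 1 FPKM were to be named. Predicted or clone-based names were left out of the most similar genes. The other gene most similar to Ndn is not reported here. Alternatives were DESeq2 1.42.0, its size factors, no filter, log2 FPKM in limma 3.58.1 with pseudocounts of 0.1 and 1, leaving out each library, the replicate number or Y-linked reads in the model, and leaving out both libraries with such reads.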

Additional observations from a re-analysis of the deposited data

How the results depend on the processing

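No member of the 10 passed the threshold under any of the 14 alternatives, where the smallest adjusted p was 0.752, and neither did any gene of the related lists. Of 138 member values under alternatives, 128 kept the direction reported and 10 did not. Igf2, Ndn, Plagl1, Mest and Peg3 kept it in all that were run. Leaving out 1 library at a time moved the log2 fold change of Dlk1 between -0.478 and 0.396, of Grb10 between -0.112 and 0.164 and of Meg3 between -0.26 and 0.833. Without both libraries with Y-linked reads it was -0.143 for Dlk1, 0.468 for H19, -0.0841 for Igf2r and -0.0142 for Meg3, with 4 libraries left, and with Y-linked reads as a covariate it was -0.00807 for Dlk1. Over all genes, DESeq2 called 44 and edgeR 3, and the edgeR count was 2 to 6 with 1 library left out, the 6 without mutant replicate 2. The cause was not tested. The limma fits gave no value for Meg3, whose mean lay under 0.1 FPKM.

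The replicate block left 2 genes past the threshold against 3. Deviations of same-numbered libraries correlated at 0.138, 0.00181 and -0.094 for numbers 1 to 3, and not every library correlated best with its own number. The labels state no pairing, and both libraries numbered 1 had Y-linked reads. At this depth counting error, 14.1% for Igf2 and 21% for H19, was smaller than the spread between replicates beyond it, 50.4% and 72.7%.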

Other observations

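Beyond the domains of the 10 genes, 36 other imprinted genes were examined, of which 22 were tested. Estimates were higher for 13 and lower for 9, with 0 past the threshold (median log2 fold change 0.028). An unadjusted p under 0.05 (edgeR) was found for 2 of the 22, against 3.99% of all genes tested. The most abundant were Casd1, a sialic acid acetyltransferase, at 51.5 to 64.8 FPKM and Gatm, an enzyme of creatine synthesis. Gatm had 36.6, 37.6 and 47.2 FPKM in wild type and 46.4, 58.8 and 64.5 in mutant cells (edgeR adjusted p = 0.999 for a log2 fold change of 0.49, SE 0.16). Its groups overlapped by the highest wild-type library. H13, Blcap, Sgce and Trappc9 lay between 23.1 and 35.3 FPKM, with log2 fold changes from -0.085 to 0.020. Zrsr1, a splicing factor gene that lies within an intron of Commd1, and Commd1 itself were both higher in all mutant libraries, and Asb4 was lower in all of them (0.908 to 1.22 against 1.31 to 2.06 FPKM, log2 fold change -0.63). These are the 3 of 22 tested genes whose groups did not overlap, against 10.3% of all genes tested. Commd1 had 2.76 to 2.97 FPKM in wild type and 3.48 to 4.12 FPKM in the mutant libraries, a log2 fold change of 0.42 (SE 0.17). These genes were singled out after its values were seen. Gnas, which encodes the Gs alpha subunit that most cells express widely, had 0.357 to 0.622 FPKM. The annotation places Gm20721 and Nespas across 16394 and 11117 of its bases on the other strand, and whether reads of overlapping genes were left out of its count was not tested.

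Of 8 genes of the fetal stem cell programme, 4 were tested and 0 passed. Hmga1 had 29.2 to 63.2 FPKM, Hmga2, a chromatin protein of fetal HSCs, 3.07 to 4.84 and Arid3a 3.58 to 5.55. Lin28b, the inhibitor of let-7 maturation that marks fetal HSCs, had 120 and 70 reads in replicate 1 of wild type and mutant. It had 5 and 10 reads in the other wild-type libraries and 36 and 10 in the other mutant libraries. Those replicate 1 libraries also had the highest Dlk1 values and the Y-linked reads. No test of these genes against sex was made.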
